A study of Acipenser ruthenus with 15 samples.

Results

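Section C, the middle slice of sterlet eggs, was compared with both poles of the same eggs. The sterlet, Acipenser ruthenus, is a small sturgeon. The labels call the samples oocytes of stage 1. Each of 3 eggs, numbered 10, 18 and 20, had been frozen and cut into 5 sections, C being the middle one, A the animal pole and E the vegetal pole. The comparison used 9 of the 15 libraries, 3 each of sections C, A and E, chosen by the section and egg in their labels. Sections B, between A and C, and D, between C and E, did not enter the comparison itself. They took part in the choice of transcripts tested, the scaling, the egg effects and the shared estimate of spread. No treatment, mutation or strain is named in the labels, and the sources used here do not say which female laid each egg. Section C is a whole slab across the egg, so its core and its outer cortex were measured together.

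The animal pole of a fish or frog egg holds the nucleus, while the vegetal side is rich in yolk. In frog eggs, RNAs of germ plasm, the cytoplasm that specifies germ cells, and some RNAs that pattern the embryo are anchored at the vegetal cortex. An RNA that is not anchored may spread through the egg. A slice through the middle can hold less or more of an RNA than either pole, or merely a level on the way from one pole to the other. The comparison was built to keep these apart.

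Library totals were 4347026 to 12933192 counts in section C, 7192785 to 11090824 in A and 7269021 to 12903746 in E, with section C of egg 20 the shallowest. Levels are CPM, counts brought to 1 library size, after TMM scaling, which is meant to correct for differences in library size and composition. They are relative to all RNA of the section and say nothing of the amount that a section holds. The files name 42878 assembled transcripts by assembly ID only, and 0 of these IDs matched the table of annotated sterlet genes. No gene name, sequence or genome position is therefore given, and the section labels could not be checked against marker genes.

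As scaled by TMM, the middle of the egg differed from the midpoint of its poles for few transcripts. The contrast was the log2 level in C minus the mean of the log2 levels in A and E. Of 29102 transcripts tested, 1197 (4.11%) passed an adjusted p of 0.05, 637 (2.19%) higher and 560 (1.92%) lower in C (edgeR's quasi-likelihood test with the egg as a block, Benjamini-Hochberg adjusted). Before adjustment 4240 (14.6%) had a p under 0.05. The contrast had the same sign in 3 of 3 eggs for 620 of the 637 and for 558 of the 560. The calls were made on these same eggs, so such agreement follows largely from the choice and is a description. Changes of at least 2-fold were found for 280 higher and 161 lower transcripts, and of at least 4-fold for 65 and 23. The median contrast was 0.89 among the higher calls and -0.69 among the lower ones, against 0.02 over all transcripts tested. With counts divided by the authors' deposited factor instead, 12364 transcripts (42.5%) passed, with a median contrast of 0.39 over all tested.

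Named are called transcripts with a mean of at least 5 CPM over C, A and E and the same sign in 3 of 3 eggs. Larger fitted contrasts, up to 6.58 and down to -7.28, did not meet these criteria. The 2 with the largest positive contrast that met them were low at the animal pole and not highest in the middle. trinitytrinLocDN50594c0g2t1 had 117, 131 and 102 CPM in section C of eggs 10, 18 and 20. It had 0.609, 1.26 and 0.812 CPM in section A and 121, 131 and 113 CPM in section E. Section C was far above A in each egg and overlapped with E. The level in C was 131-fold that in A, and the log2 contrast was 3.51 ± 0.12 (SE; edgeR with Benjamini-Hochberg adjustment, 2.33e-11). The difference C minus E was -0.06 on the log2 scale, with a 95% interval of -0.28 to 0.16. Section B stood at 10.3 ± 1.13 CPM (SD, n = 3), above A and below C in each egg.

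trinitytrinLocDN53737c0g1t2, the second of these, was highest toward the vegetal pole. It had 3.48, 9.23 and 9.10 CPM in section C, 0 counts in section A and 15.2, 42.6 and 38.6 CPM in section E. Every library of C lay above A and below every library of E. Its level in C was at least 23.0-fold that in A, taking 3 counts per library as the floor, and was exceeded 4.42-fold by that in E. It passed the contrast (edgeR with Benjamini-Hochberg adjustment, 0.00064) although C reached only 0.453 times the arithmetic mean of the poles. As A held no reads, the size of its fitted log2 contrast, 3.46, and its rank depend on the small prior count added in the fit. With 0.5 CPM added to each level, the contrast was 0.51, 1.07 and 1.12 in eggs 10, 18 and 20. The call was lost without the egg as a block (edgeR with Benjamini-Hochberg adjustment, 0.111).

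By the same criteria, the 2 most negative contrasts belonged to transcripts high at the animal pole. trinitytrinLocDN53171c2g2t1 had 0.618, 0.447 and 0.887 CPM in section C, 44.1, 85.1 and 61.3 CPM in section A and 0.118, 0 and 1.04 CPM in section E. Section C lay far below A and overlapped with E. The level in A was 97.5-fold that in C, and the log2 contrast was -3.07 ± 0.57 (SE; edgeR with Benjamini-Hochberg adjustment, 0.00299). The contrast rested on section E of egg 20, which held most of the 14 counts in E: without that library it was -1.77 and not called (edgeR with Benjamini-Hochberg adjustment, 0.595), and without egg 20 it was -1.93 and not called (0.756). trinitytrinLocDN53171c2g2t2, of the same assembled gene, had 0.618, 1.34 and 1.33 CPM in C, 42.8, 74.2 and 71.0 in A and 1.42, 0.439 and 1.12 in E. Its contrast was -2.95 ± 0.43 (SE; edgeR with Benjamini-Hochberg adjustment, 0.000326). Transcripts of 1 assembled gene can share reads, so these are not independent cases.

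**Figure D1:**
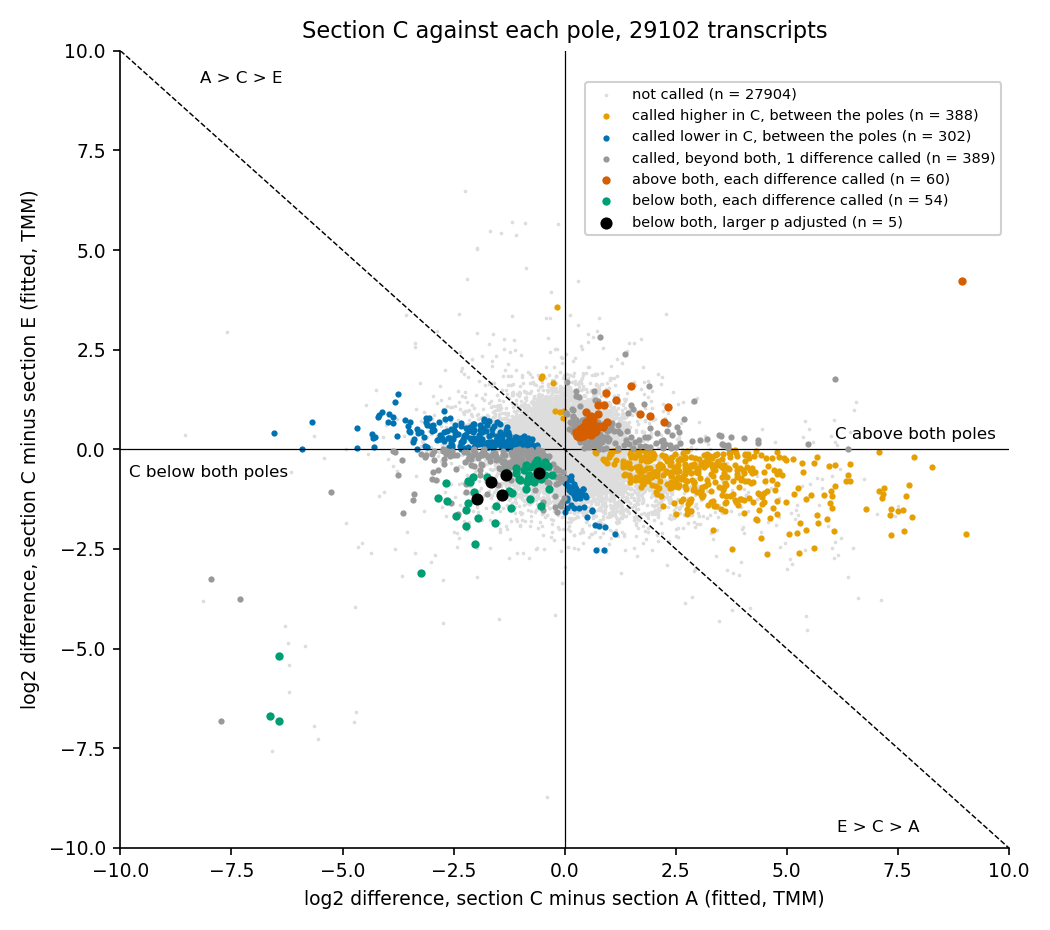
Each point is 1 of 29102 transcripts, placed by its fitted log2 difference of section C minus section A (horizontal) and of C minus section E (vertical); 1 transcript lies outside the axes, and the dashed line marks a contrast of 0. Points in the upper left and lower right have C between the poles and hold 690 of the 1197 calls, while the upper right and lower left have C beyond both poles.

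Plain gradients made up 690 of the 1197 calls. Here a gradient means that E and A differed (adjusted p under 0.05) and the fitted level of C lay between them. Gradients were 388 of the 637 higher calls (60.9%) and 302 of the 560 lower ones (53.9%). E and A differed for 35.1% of all transcripts, and 1026 of those 10222 transcripts (10.0%) passed the contrast. C lay between the poles for 9037 of the 10222, against 690 of the 1026 that passed the contrast. Over all transcripts tested, whether or not E and A differed, the fitted C lay between the poles for 56.4%. Gradients were therefore not more frequent among the calls than this background would give. As the contrast is on a log scale, a gradient can pass it when C is closer to one pole than to the other.

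The largest group of gradients was 380 transcripts high at the vegetal pole with C above the midpoint. Their median level was 23.3 CPM in C, 2.86 in A and 38.3 in E. Both steps, C above A and C below E, passed the test for 211 of them, and for the other 169 only C above A did. In CPM rather than on the log scale, C exceeded the arithmetic mean of the poles in 3 of 3 eggs for 177 and fell short of it in 3 of 3 eggs for 67. trinitytrinLocGG_19307c0g1t1 is an example, with 8.97, 4.17 and 4.66 CPM in C, 1 count in section A and 14.0, 10.1 and 14.3 CPM in E. No library of C reached those of E. C stood at 0.924 times the arithmetic mean of its poles, while the contrast passed (edgeR with Benjamini-Hochberg adjustment, 0.000231).

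The next group was 254 transcripts high at the animal pole with C below the midpoint, at a median of 31.1 CPM in C, 99.9 in A and 26.2 in E. Only C below A passed the test for 218 of these, so C was not told apart from the vegetal pole, and both steps passed for 36. C lay below the arithmetic mean of the poles in 3 of 3 eggs for all 254. trinitytrinLocDN53171c2g1t1 had 4.87, 3.13 and 10.9 CPM in C, 169, 402 and 395 in A and 1.89, 2.20 and 6.81 in E. C was far below A in each egg and overlapped with E, and A was 51.2-fold C. It belongs to the same assembly component as the pair of animal-pole transcripts above.

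Gradients that bent the other way were rare. There were 48 transcripts high at the vegetal pole with C below the midpoint and 8 high at the animal pole with C above it. Both steps passed the test for 19 of the 48 and for 1 of the 8, and for the others only the step between C and E did. trinitytrinLocGG_8074c0g1t3 had 6.73, 16.4 and 11.1 CPM in C, 5.92, 6.70 and 6.94 in A and 40.4, 89.9 and 65.6 in E. C lay below every library of E and overlapped with A, though it was above A within each of the 3 eggs, at 1.75-fold A on average while E was 5.73-fold C. C minus A passed the test as well (edgeR with Benjamini-Hochberg adjustment, 0.011). It had a log2 contrast of -0.90 ± 0.15 (SE; edgeR with Benjamini-Hochberg adjustment, 0.00126). trinitytrinLocDN51812c1g5t1 had 13.8, 7.74 and 13.5 CPM in C, 16.6, 11.7 and 12.6 in A and 5.56, 2.49 and 3.05 in E. C overlapped with A, exceeding it in egg 20, and lay above every library of E, with a contrast of 0.71 ± 0.16 (SE; edgeR with Benjamini-Hochberg adjustment, 0.0124). Section B, at 20.2, 11.3 and 18.2 CPM, was above A in eggs 10 and 20, so the animal pole was not its highest section there. The contrast call of trinitytrinLocDN51812c1g5t1 was lost in 7 of 22 alternatives, among them without egg 10, 18 or 20.

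The other 507 calls, 249 higher and 258 lower, had a fitted level of C beyond both poles, but most differed from 1 pole only by the test. Over all transcripts tested, C was higher than A for 8.79% and lower for 8.48%, and higher than E for 3.95% and lower for 6.09%. Of the 249, 140 differed from A only, 49 from E only and 60 from each pole. Of the 258, 173 differed from A only, 27 from E only and 58 from each pole. Whatever the test, the fitted C lay above both poles for 6953 and below both for 5732 of the 29102.

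A transcript was counted as above or below both poles when the larger p of C minus A and C minus E, both of 1 sign, passed 0.05 after adjustment over all transcripts. By that rule 5 transcripts (0.0172%) were below both poles and 0 (0%) were above both (edgeR with Benjamini-Hochberg adjustment). The larger p was under 0.05 before adjustment for 307 transcripts (1.05%) above and 216 (0.742%) below both. DESeq2 called 2 above and 10 below.

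The transcript lowest in the middle with the smallest adjusted p was trinitytrinLocDN52016c2g1t2. It had 17.2, 21.6 and 19.7 CPM in section C, 41.9, 58.4 and 55.1 in A and 38.2, 47.6 and 44.2 in E. Every library of C lay below every library of A and E, and the poles overlapped each other. A was 2.66-fold C and E 2.22-fold C, with log2 differences of -1.40 ± 0.12 for C minus A and -1.15 ± 0.12 for C minus E (SE; edgeR with Benjamini-Hochberg adjustment of the larger p, 0.00154). B and D, which played no part in the rule, stood at 24.7 ± 1.13 and 26.1 ± 1.55 CPM (SD, n = 3), between C and the poles. The call was lost in 6 of 22 alternatives. It was narrowly lost without section C of egg 10 (edgeR with Benjamini-Hochberg adjustment, 0.0559) and without the egg as a block (0.0595). Leaving out egg 18 or egg 20 lost it by more (edgeR with Benjamini-Hochberg adjustment, 0.238 and 0.743). Under 2 other scalings, by the deposited factor and by the spike-in, it was lost too. There the smaller log2 difference shrank to -0.49 and -0.74.

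trinitytrinLocDN44493c0g1t1 had the deepest trough of the 5, at a low level. It had 1.62, 3.43 and 3.77 CPM in C, 6.53, 12.4 and 16.3 in A and 4.14, 8.35 and 8.74 in E. The C libraries lay below all A and E libraries, with log2 differences of -1.98 against A and -1.26 against E. Its adjusted p was 0.0435 (edgeR with Benjamini-Hochberg adjustment of the larger p), and the call was lost in 17 of 22 alternatives. The other 3 averaged 16.3, 117 and 129 CPM in C, with log2 differences of -1.66 to -0.57 against A and -0.83 to -0.58 against E. In the second of these B averaged 116 CPM, so its trough was not confined to C. The count of 5 moved with single libraries. It was 0 when egg 18, egg 20 or section C of egg 10 was left out, and 1 when egg 10, section C of egg 18 or 20, or section E of any egg was. It was 2 when section A of egg 18 or of egg 20 was left out.

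No transcript passed the rule for above both poles, and the 2 nearest to it were picked after their values were seen. trinitytrinLocDN50836c0g1t5 had 115, 109.9 and 120.0 CPM in C, 81.8, 64.9 and 75.6 in A and 81.2, 70.4 and 73.2 in E. Every library of C lay above every library of the poles, by 1.55-fold over A and 1.53-fold over E on average. The adjusted larger p was 0.143 in edgeR and 0.000304 in DESeq2, both with Benjamini-Hochberg adjustment. B and D stood at 77.1 ± 14.0 and 87.7 ± 4.74 CPM (SD, n = 3).

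trinitytrinLocDN53146c0g1t1 had 43.1, 12.4 and 36.6 CPM in C, 13.6, 8.93 and 16.7 in A and 22.0, 4.54 and 12.6 in E. Within each egg C was above both poles, although egg 18 was low throughout and its C overlapped with the poles of the other eggs. C averaged 2.35-fold A and 2.35-fold E. The adjusted larger p was 0.718 in edgeR and 0.0456 in DESeq2, both with Benjamini-Hochberg adjustment.

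**Figure D2:**
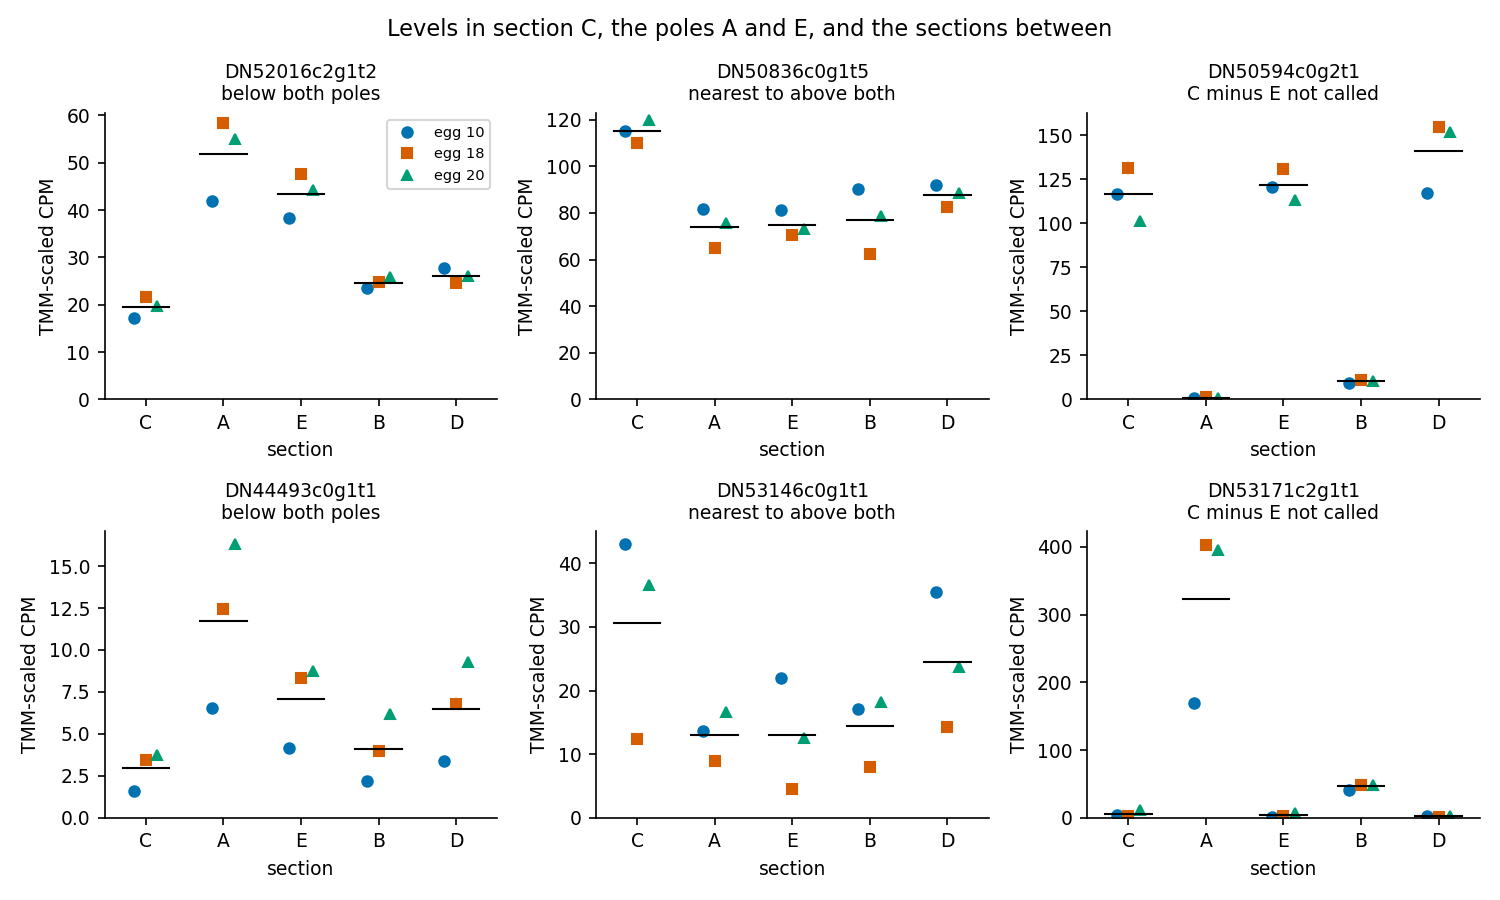
TMM-scaled CPM of 6 transcripts in sections C, A, E, B and D; each symbol is 1 library, marked by egg, and bars are means of 3 eggs. The left column is below both poles, with C of trinitytrinLocDN52016c2g1t2 at 17.2 to 21.6 CPM; the middle column holds the nearest cases above both poles; the right column holds transcripts whose C was not told apart from E.

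A looser rule, that C minus A and C minus E each pass an adjusted p of 0.05 on their own, gave 60 transcripts above (0.206%) and 59 below (0.203%) both poles. It does not hold the error rate over the pair of tests. The count depended on single eggs and libraries. Those above both poles numbered 4 when egg 20 was left out, 18 for egg 18, 19 for section C of egg 20, 39 for section A of egg 20 and 29 and 28 for section E of eggs 18 and 20. Those below both numbered 18 for egg 20, 29 for egg 18, 39 for egg 10, 27 for section C of egg 10 or of egg 20, and 34, 34 and 36 for section E of eggs 10, 18 and 20. Leaving out section A of egg 10 raised the count to 76 above and 72 below. Under the omissions not listed the count was 43 to 58 above and 46 to 53 below. Other settings moved it too, to 3 above and 8 below without the egg as a block and 21 and 32 with sections A, C and E alone. Scaled by the spike-in there were 35 above and 17 below, by the deposited factor 1805 and 11, by total counts 93 and 44, and with no filter on low counts 34 and 59.

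The size of an excess or a trough in the middle was mostly under 2-fold. For the 60 above both poles, the smaller of the 2 log2 differences ran from 0.27 to 4.22 with a median of 0.47, and 4 were at least 2-fold above both. Of those 4, 1 had 0 counts in a pole, so its fitted difference depends on the prior count and is no bound. For the 59 below both poles, the smaller difference ran in size from 0.28 to 6.64 with a median of 0.74, and 20 were at least 2-fold below both. Of those 20, 3 had 0 counts in section C, and 5 had at least 5 CPM in the lower pole.

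For some of these transcripts the poles differed as well. E and A differed for 23 of the 59, with A the higher in 20 of these, and for 7 of the 60 above both poles, with A the higher in 1. The background was 35.1% over all transcripts tested.

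Sections B and D, which the rule did not use, lay on the slopes of these shapes. Among the 60 above both poles, the mean of B lay between those of C and A for 53 and the mean of D between those of C and E for 57. Section C was the highest of all 5 sections for 59 of the 60. Among the 59 below both poles, B lay between C and A for 50 and D between C and E for 54. C was the lowest of the 5 for 50, B for 7 and D for 2. Relative to the mean of the poles, the median log2 level of the 60 was 0.50 ± 0.05 in C, 0.16 ± 0.03 in B and 0.25 ± 0.05 in D (SD over 3 eggs). That of the 59 was -0.85 ± 0.07 in C, -0.43 ± 0.09 in B and -0.48 ± 0.07 in D. Values of B and D are a description, because both are set against the C and pole libraries by which the transcripts were chosen.

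**Figure D3:**
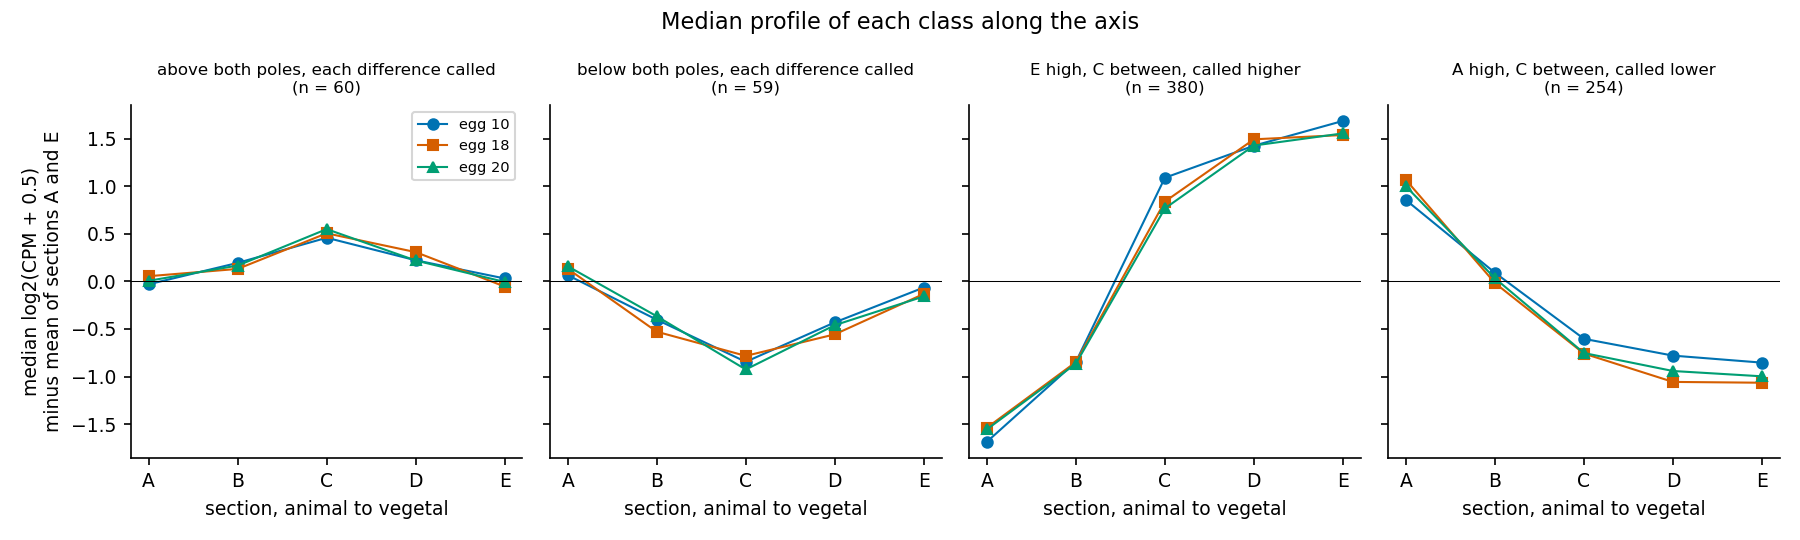
Median log2(CPM + 0.5) in sections A to E, relative to the mean of A and E in the same egg, for 4 sets of transcripts chosen on these libraries; each line is 1 egg. The first set peaks in C at 0.50 ± 0.05, the second has its trough in C at -0.85 ± 0.07, and in the vegetal gradients C, at 0.90 ± 0.17, lies below D at 1.45 ± 0.04 and E at 1.59 ± 0.08.

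Where C stood between the poles was measured on transcripts chosen by a called difference between A and E. They also had a mean of at least 1 CPM over all 15 libraries, those of C among them, so the choice was not wholly independent of C. Position was 0 at the level of A and 1 at the level of E, on the log2(CPM + 0.5) scale. For 1019 transcripts at least 4-fold higher in E, the median position of C was 0.710 in egg 10, 0.633 in egg 18 and 0.585 in egg 20, a mean of 0.642 ± 0.063 (SD, n = 3). For 446 transcripts at least 4-fold higher in A it was 0.779, 0.839 and 0.793, a mean of 0.804 ± 0.0312. C was thus nearer to the vegetal pole than to the animal pole in 3 of 3 eggs in both sets. All 3 eggs on 1 side of the midpoint give, in each set, p = 0.25 in an exact two-sided sign-flip test, the smallest that 3 eggs allow.

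The neighbouring sections were placed in the same way. Section B stood at 0.142 ± 0.00353 for the vegetal set and at 0.432 ± 0.0438 for the animal set, and D at 0.902 ± 0.0222 and 0.952 ± 0.0424 (SD, n = 3). The mean position of C stayed above 0.5 in both sets under the 3 other scalings tried. It was 0.666 and 0.777 by total counts, 0.778 and 0.661 with the spike-in line as scaling, and 0.840 and 0.548 with the deposited factor, the number by which the authors divided each library's counts, for the vegetal and the animal set in turn. The order of the sets turned round under both of these scalings. In the animal set with the deposited factor, the spread over eggs reached the midpoint (0.548 ± 0.0691, SD, n = 3). With sets of at least 2-fold, scaled by TMM, the mean position of C was 0.571 and 0.672.

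**Figure D4:**
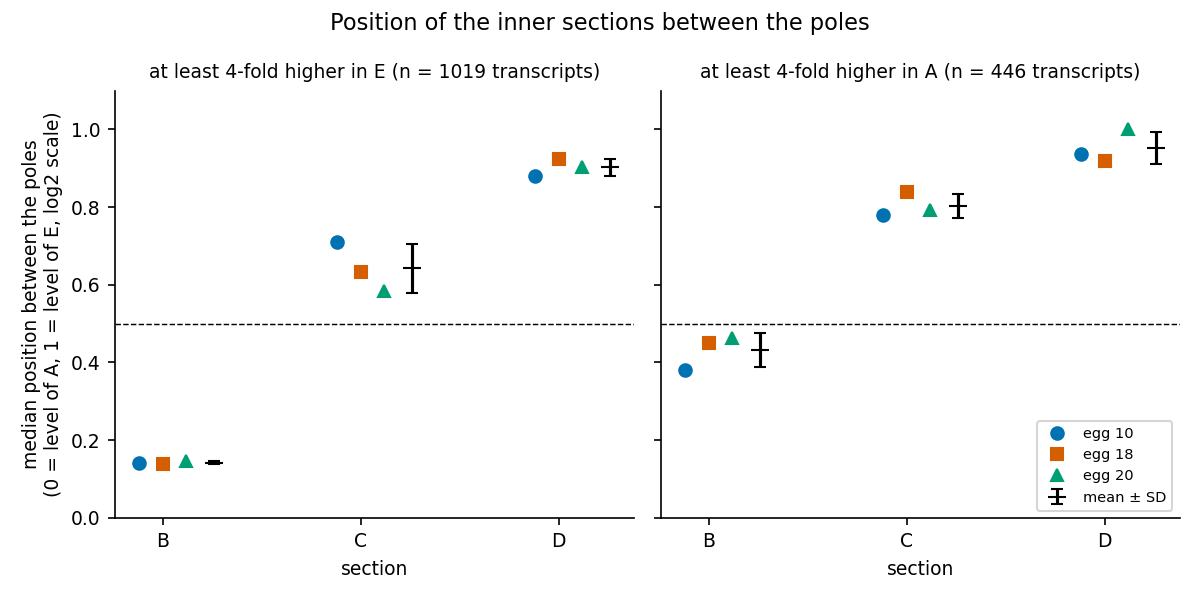
Median position of sections B, C and D between the poles (0 = level of A, 1 = level of E, log2 scale) for transcripts at least 4-fold higher in E (left) or in A (right); symbols are eggs, and the bar is mean ± SD over 3 eggs. All C values, 0.585 to 0.839, lie above the dashed midpoint.

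Calls made on 2 eggs mostly had the same sign in the egg left out. Of the higher calls made without egg 10, 18 or 20, 96.3%, 92.2% and 96.4% had a positive contrast in that egg, against 50.3%, 53.2% and 48.8% of all transcripts. For the lower calls 89.7%, 97.7% and 98.5% had a negative one. Positions beyond both poles were looked at in the same way. Of the transcripts above both poles by the looser rule, 34 of 43, 13 of 18 and 4 of 4 were above both in the left-out egg, against 26.1%, 27.5% and 27.1% of all transcripts. Of those below both, 26 of 39, 26 of 29 and 16 of 18 were below both, against 25.2%, 20.8% and 28.4%.

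The transcripts called were mostly abundant ones, for which counts are deeper. The median over all 15 libraries was 24.3 CPM for the higher and 40.0 CPM for the lower calls, against 7.84 CPM over all tested. It was 50.5 CPM for the 60 above both poles and 15.5 CPM for the 59 below both. IDs of the form DN made up 91.7% of the 60 and 64.4% of the 59, against 65.2% of all tested. Abundant transcripts carried this form more often, 82.2% of the 9423 with at least 20 CPM. At that level it was carried by 95.2% of the 42 above and 87.0% of the 23 below both poles.

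Transcripts of 1 assembled gene were not called in opposite directions. Of 601 assembled genes with more than 1 tested transcript, 60 had a call, against 1184 of all 28468 tested genes. Of these, 13 had 2 or more calls of 1 direction, 47 had 1 call, and 0 had calls in both directions. Only genes with 2 or more calls can show both directions, and their transcripts can share reads.

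The higher calls took 4.73 ± 0.414% of the counts in section C, 2.003 ± 0.14% in A and 5.62 ± 0.253% in E (SD, n = 3). The lower calls took 2.99 ± 0.114% in C, 7.09 ± 0.716% in A and 3.29 ± 0.078% in E. In both sets C was nearer to E than to A. The 60 transcripts above both poles by the looser rule took 0.571 ± 0.0631% of the counts in C, 0.395 ± 0.0257% in A and 0.385 ± 0.0347% in E. The 59 below both took 0.171 ± 0.00832%, 0.324 ± 0.021% and 0.239 ± 0.00999%. These sets were chosen on the same libraries, so the shares are a description.

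For many transcripts the data, as scaled by TMM, bound the difference between the middle and the midpoint of the poles. The 95% interval of the contrast lay within a 2-fold change in either direction for 21327 transcripts (73.3%) and within 0.5 on the log2 scale for 11286 (38.8%). The median width of that interval on either side was 0.40. An uncalled transcript outside these bounds may still differ.

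Scaling changed the number of calls and the share of them that were higher in C. By TMM 53.2% of the calls were higher in C, against 72.2% of the 738 made by the spike-in and 97.6% of 12364 with the deposited factor. The median contrast of all transcripts was 0.16 with the spike-in and 0.39 with the deposited factor, against 0.02 with TMM. The median C minus A was -0.10 with the spike-in and 0.09 with the deposited factor, and the median C minus E 0.42 and 0.68, each against 0.02 with TMM. Of the 637 higher calls, 449 were called higher with the spike-in and 637 with the deposited factor. Of the 560 lower calls, 172 and 264 were called lower under these scalings, and 0 were called higher. Of the 690 gradients, 329 and 308 in turn were still called gradients. The deposited factor called 483 transcripts above both poles and 0 below, and the spike-in 3 and 0.

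**Figure D5:**
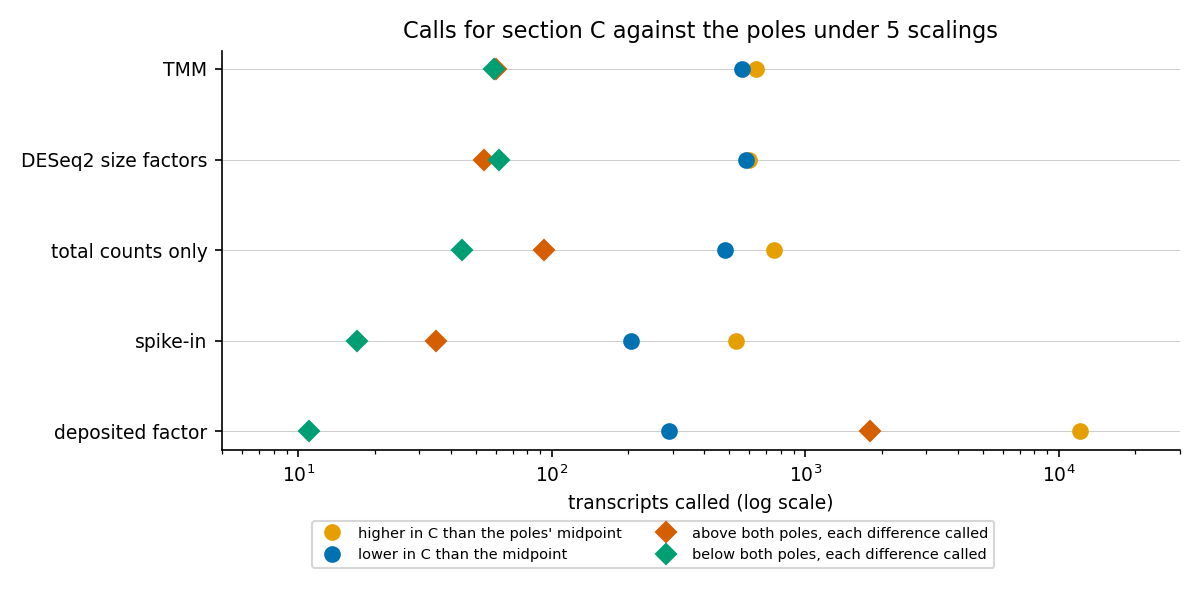
Number of transcripts called (log axis) under 5 scalings; circles are calls against the midpoint of the poles and diamonds are transcripts beyond both poles by the looser rule. With the deposited factor 12073 are higher in C and 291 lower, against 637 and 560 with TMM.

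Single libraries also moved the totals. The higher calls numbered 366 when section C of egg 10 was left out, and the lower calls 336 for that library and 321 for section C of egg 20. For eggs 10, 18 and 20 there were 401, 398 and 302 higher and 526, 261 and 199 lower calls. Without the egg as a block there were 230 higher and 200 lower calls, each of which was also called with the block.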

How the data were processed

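Of the 2 files per library, one holds the deposited counts per assembled transcript and the other the deposited normalized signal, which is those counts divided by 1 factor per library, as the values show. Per the submitters' processing notes, Trimmomatic, STAR 2.5.2b, kallisto and DESeq2 were used, with no role stated; the sources used here do not give the assembly. Per the labels' protocols, RNA was depleted of ribosomal RNA and made into strand-specific libraries. The spike-in line, 0.0115 to 0.0235% of counts, stayed out of sizes and tests. In R 4.3.3, edgeR 4.0.16 filtered transcripts (filterByExpr), scaled with TMM and fitted section and egg over all 15 libraries (8 residual degrees of freedom, biological coefficient of variation 0.123), and glmQLFTest gave each contrast, adjusted by Benjamini-Hochberg over 29102 transcripts at 0.05. DESeq2 1.42.0 was an alternative. Intervals and SEs come from the quasi-likelihood F statistic and are approximate. The method was also run on simulated counts without egg effects, which cannot show how the block performs. Sections of 1 egg are pieces of that egg, hence the block. Deviations from section means correlated 0.342 to 0.724 within an egg and -0.759 to 0.182 between eggs. Deviations from a mean of 3 eggs cancel within a section, which by itself pushes the values between eggs down. Chi-square per degree of freedom between libraries of 1 section was 4.77 to 23.1, so none was a repeat deposit. With the egg as a block, the p-values rest on how section differences vary among these 3 eggs, over all 5 sections. They cover no other eggs. Floors take 3 counts per library and cover counting error only. Per-egg values and medians used log2 of CPM plus 0.5. Named were, per direction, at most 2 transcripts with the largest contrast or smaller difference from both poles, called, alike in 3 of 3 eggs and with at least 5 CPM, and 1 per gradient class. Lists of germ plasm, axis, mitochondrial, ribosomal and follicle genes could not be applied without gene names. The comparison, classes and lists were chosen with earlier results of these data known.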

Additional observations from a re-analysis of the deposited data

Results flagged for a closer look

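The spike-in line, which is outside the main measurement, held between 693 and 3407 counts per library. It stood at 149 ± 15.6 TMM-scaled CPM in section C, 138 ± 24.7 in A and 200 ± 41.2 in E (SD, n = 3). C overlapped with A, and every library of C lay below every library of E. The deposited factor, divided by the TMM library size, averaged 0.881 ± 0.00706 in C, 0.927 ± 0.00629 in A and 1.40 ± 0.00785 in E, and was 1.58 times as high in E as in C. Whether either reflects the RNA held by a section was not tested. No group has more than 3 libraries, so no single library was tested as an outlier.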

How the results depend on the processing

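The contrast gave 637 higher and 560 lower calls. With the deposited factor they were 12073 and 291, without a replicate block 230 and 200, with sections A, C and E alone 419 and 386, with the spike-in 533 and 205, and on leaving out an egg or library 302 to 695 and 199 to 787. Plain gradients numbered 690 in the main fit. Division by the deposited factor gave 3195, but only 308 of the 690 were among them. Spike-in scaling gave 405, among them 329 of the 690. Without a replicate block there were 299, among them 297 of the 690. Leaving out an egg or library gave 341 to 815. Which transcripts were called gradients thus depended on the scaling. Above both poles, 0 became 483 by the deposited factor, 3 by the spike-in, 2 with DESeq2 and 60 with each difference called on its own, and stayed at 0 on leaving out each egg or library. Below both poles, 5 became 0 with the deposited factor, the spike-in or no replicate block, 1 with total counts only or sections A, C and E alone, 10 with DESeq2, 59 with each difference called on its own and 0 to 6 on leaving out an egg or library. The position of C in the vegetal and the animal set, 0.642 and 0.804, was 0.840 and 0.548 by the deposited factor, 0.778 and 0.661 by the spike-in, 0.571 and 0.672 for sets of at least 2-fold, and 0.606 to 0.656 and 0.775 to 0.794 without an egg. The cause of these changes was not tested. Both filters on low counts, size factors from DESeq2, the robust variance estimate and sums per assembled gene changed 4 kinds of count by at most 1.5 times. These were the higher and lower calls, the gradients and the transcripts beyond both poles by the adjusted larger p. The 60 above both poles with each difference called on its own became 34 with no filter on low counts. The named transcripts gave 264 values under alternatives, of which 225 had the same direction and call, 35 lost the call, 4 gained it and 0 reversed. Named transcripts have no value under sums per assembled gene. Without section C of egg 20, the shallowest library, there were 435 higher and 321 lower calls.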
